A study of Ovis aries with 32 samples.

Results

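The comparison described here is between visceral and subcutaneous fat of the same control sheep. It rests on 8 of the 32 libraries of the series, chosen by their labels alone: the visceral and the subcutaneous library of each of 4 control ewes, which the labels number 98, 131, 132 and 201. The series as a whole measured messenger RNA in 4 fat depots of adult female sheep, 4 controls and 4 exposed to excess testosterone before birth, as a model of polycystic ovary syndrome. Visceral fat was mesenteric fat taken around the ventral sac of the rumen, and subcutaneous fat came from under the skin over the sternum. Of the dams of the control sheep, the labels say no more than that they were assigned to the control group. The dams of the testosterone sheep, whose 8 visceral and subcutaneous libraries serve below as a second set of animals, were injected 2 times each week between gestation days 30 and 90 with testosterone propionate, at 100 mg or 1.2 mg/kg a dose, carried in 2 ml of corn oil. All sheep of both groups had been ovariectomized at the end of their second breeding season, ate a maintenance diet and were sampled in an artificial follicular phase, made with 2 progesterone implants for 14 days and then 4 estradiol implants of 30 mm for 18 h. The depots therefore come from animals without ovaries under a set steroid level, not from cycling ewes, and each was sampled at 1 site.

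White fat depots share a main cell, the adipocyte, which stores triglyceride, releases fatty acids in lipolysis and secretes adipokines. They differ in embryonic origin, and their progenitors keep the expression of homeobox and other developmental transcription factors that reflects the place in the body where they arose. Mesenteric fat lies in the abdomen under a mesothelium, drains to the portal vein and holds many immune cells, whereas sternal subcutaneous fat lies in the body wall at the level of the forelimb and chest. Levels below are CPM, counts scaled to a common library size. The libraries read the 3′ ends of transcripts, so that no length correction was made. A difference is a log2 fold change, visceral minus subcutaneous, with its standard error (SE), and a gene is called when its adjusted p from edgeR's quasi-likelihood test, with the sheep as a block, is under 0.05. Where 4 values are given in a row, they are those of sheep 98, 131, 132 and 201 in this order.

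The visceral libraries held 6093513 to 7980969 counts and the subcutaneous libraries 3519829 to 5354843, so that every visceral library was deeper than every subcutaneous library. Both depots carried adipocyte transcripts at high levels in all 8 libraries. FABP4, the fatty acid carrier of adipocytes, was at 20490 to 30340 CPM in visceral and 11720 to 22140 CPM in subcutaneous libraries, and UCP1, the uncoupling protein of brown fat, was at no more than 0.665 CPM in any. The first principal component of the 8 libraries held 36.9% of the variance and separated the depots. The second, with 20%, set both libraries of sheep 132 apart from the other 6.

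**Figure D1:**
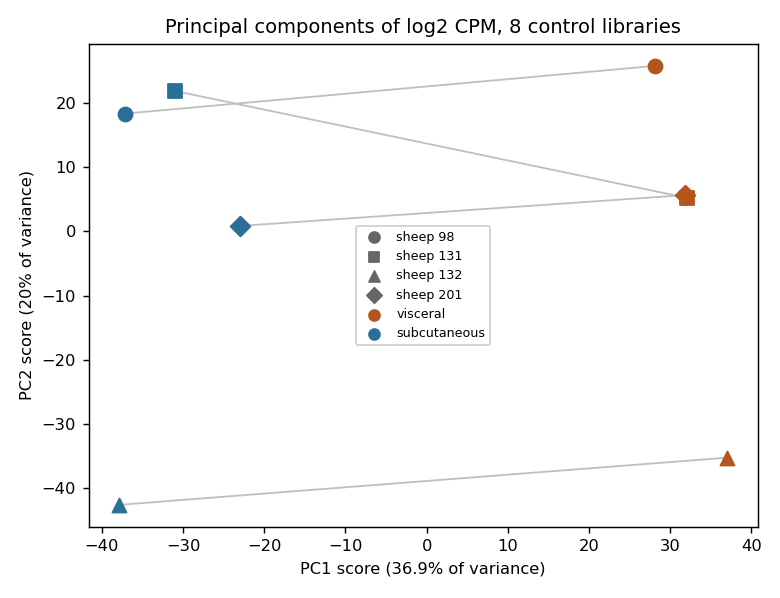
Scores of the 8 control libraries on the first and second principal component of log2 CPM, with 36.9% and 20% of the variance. Colour gives the depot, the marker gives the sheep, and a grey line joins the 2 libraries of 1 sheep: visceral libraries lie at 28.1 to 37.0 and subcutaneous libraries at -37.9 to -23.1 on the first component.

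Of 12599 genes tested, 2315 (18.4%) differed between the depots, 1273 (10.1%) higher in visceral and 1042 (8.27%) higher in subcutaneous fat. Of the called genes, 2227 were higher in the same depot in 4 of 4 sheep. In 1184 genes (9.4%) all 4 visceral libraries lay above all 4 subcutaneous libraries, and in 903 (7.17%) the reverse held. Most called differences were small: 451 genes were over 2-fold higher in visceral fat and 317 over 2-fold lower, while 75 and 46 passed 4-fold. Among the 12 named genes with the largest fold in each direction, 2 of those higher and 10 of those lower in visceral fat were regional transcription factors. Without sheep 131, 722 genes were called higher and 546 lower, and without sheep 201, 853 and 602. With counts thinned at random to 3519829 per library, so that the depots had equal depth, 1124 were called higher and 927 lower.

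**Figure D2:**
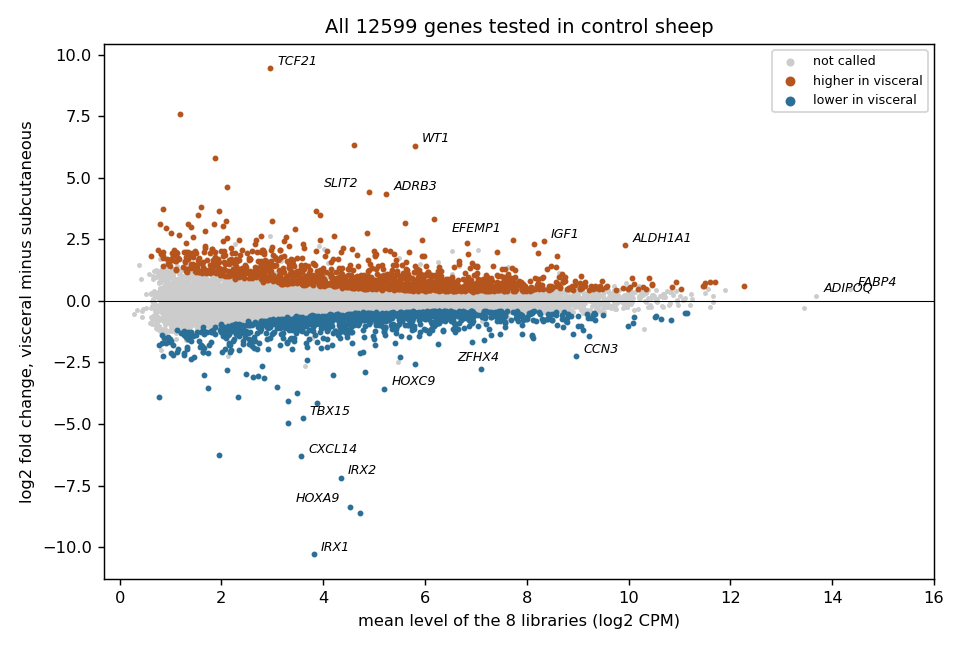
Each point is 1 of the 12599 genes tested, with its mean level in the 8 control libraries (log2 CPM, horizontal) against its log2 fold change, visceral minus subcutaneous (vertical). Coloured points are called (1273 higher, 1042 lower in visceral fat), and the points of TCF21 and IRX1, each at 0 in 1 depot, show fitted values that depend on a small added count.

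TCF21, a transcription factor of visceral mesoderm, had 17.8, 11.5, 16.2 and 16.6 CPM in visceral fat and no count in any subcutaneous library of a control sheep. Against a floor of 3 counts over the 4 subcutaneous libraries it was at least 93.4-fold higher in visceral fat (adjusted p = 3.60e-07). WT1, which marks mesothelium and progenitors of visceral fat, stood at 155, 89.5, 82.0 and 114 CPM in visceral and 1.20, 0.796, 2.90 and 0.546 CPM in subcutaneous fat. The 2 depots were far apart in every sheep, with a log2 fold change of 6.30 (SE 0.34, adjusted p = 4.52e-07), which was 7.14 without sheep 132. DMRT2, a factor of the embryonic body segments, was moderately expressed in both depots, at 166, 168, 133 and 151 CPM in visceral and 41.0, 53.9, 52.0 and 52.2 CPM in subcutaneous fat. All visceral libraries were above all subcutaneous libraries, and its log2 fold change was 1.62 (SE 0.14, adjusted p = 1.54e-06).

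Subcutaneous fat was marked by a larger group of such factors. The Iroquois gene IRX1 had no count in visceral fat and 35.7, 32.9, 21.2 and 22.4 CPM in subcutaneous fat, at least 244-fold more (adjusted p = 1.69e-08). Its neighbour in the family, IRX2, was at 0.416, 0.329, 0.133 and 0.171 CPM in visceral and 54.9, 36.9, 35.3 and 34.8 CPM in subcutaneous fat, a log2 fold change of -7.19 (SE 0.30, adjusted p = 2.15e-10). IRX5, the most abundant Iroquois gene in visceral fat among these 3, still reached no more than 2.05 CPM there, against 18.4, 18.1, 24.1 and 23.1 CPM in subcutaneous fat, with a log2 fold change of -3.75 (SE 0.27, adjusted p = 1.15e-07).

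TBX15, a T-box factor of body wall and limb mesenchyme, was at 1.53, 0.329, 0.931 and 0.512 CPM in visceral and 19.6, 15.9, 42.6 and 15.3 CPM in subcutaneous fat, where sheep 132 was highest. The groups did not overlap, and the log2 fold change was -4.77 (SE 0.33, adjusted p = 6.82e-08). EYA1, a coactivator in the development of muscle and kidney, was low in both depots. It ran from 0.164 to 1.33 CPM in visceral and from 2.63 to 13.8 CPM in subcutaneous fat, a log2 fold change of -3.53 (SE 0.45, adjusted p = 7.40e-05).

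ZFHX4, a large zinc finger homeobox gene, differed less, although it was well expressed in both depots. It stood at 55.9, 54.5, 68.3 and 57.7 CPM in visceral and 179, 169, 217 and 168 CPM in subcutaneous fat. No library of 1 depot reached the other depot, and the log2 fold change was -1.65 (SE 0.13, adjusted p = 2.83e-07). Over a list of 80 regional transcription factors other than HOX genes, 48 passed the filter on low counts, of which 9 were called higher and 17 lower in visceral fat. Their median log2 fold change was -0.24, against -0.01 over all genes tested. The other higher members were BARX1, MEIS1, MEIS2, NR2F1, PBX3 and TSHZ2, and lower members not given above included IRX3, TBX5, SHOX2, PRRX2, MSX1, TWIST1, TWIST2, TSHZ1 and EMX2.

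HOX genes, which record position along the body axis, were mostly lower in visceral fat, but not all of them. Of 37 HOX genes present in the counts, 22 could be tested. Of these, 12 were called lower and 2 higher in visceral fat, with a median log2 fold change of -0.82. HOXA9 gave 3 counts in all in visceral fat and 47.2, 64.0, 26.6 and 46.6 CPM in subcutaneous fat, a ratio of 403 (95% exact counting interval 138 to 1959; adjusted p = 7.40e-10). HOXC9 was at 4.86, 6.08, 3.06 and 10.1 CPM in visceral and 65.7, 80.4, 47.8 and 75.9 CPM in subcutaneous fat, a log2 fold change of -3.57 (SE 0.20, adjusted p = 5.80e-09). HOXA10, with 2 counts in all in visceral fat, lay at 2.23 to 13.0 CPM in subcutaneous fat, a ratio of 99.7 (interval 27.1 to 832).

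Smaller differences were found in HOXC8, HOXD8 and HOXC6. HOXC8 stood at 17.2, 14.0, 14.6 and 17.2 CPM in visceral and 66.8, 87.6, 66.5 and 80.0 CPM in subcutaneous fat, a log2 fold change of -2.27 (SE 0.16, adjusted p = 1.08e-07). HOXD8 was at 9.85, 11.5, 8.78 and 12.1 and 35.2, 37.7, 56.7 and 49.3 CPM, a log2 fold change of -2.09 (SE 0.19, adjusted p = 2.17e-06). HOXC6, the HOX gene with the highest level named here, was nearly constant within each depot, at 94.0, 97.2, 96.9 and 97.7 CPM in visceral and 193, 225, 209 and 219 CPM in subcutaneous fat. Every sheep had about the same ratio, and the log2 fold change was -1.15 (SE 0.13, adjusted p = 1.79e-05). HOXB5 and HOXA3 were the 2 members called higher in visceral fat, at 0.90 and 0.41, and neither stayed past the threshold without sheep 131, 201 or 98 or in DESeq2, while 9 to 12 members were called lower in these fits.

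**Figure D3:**
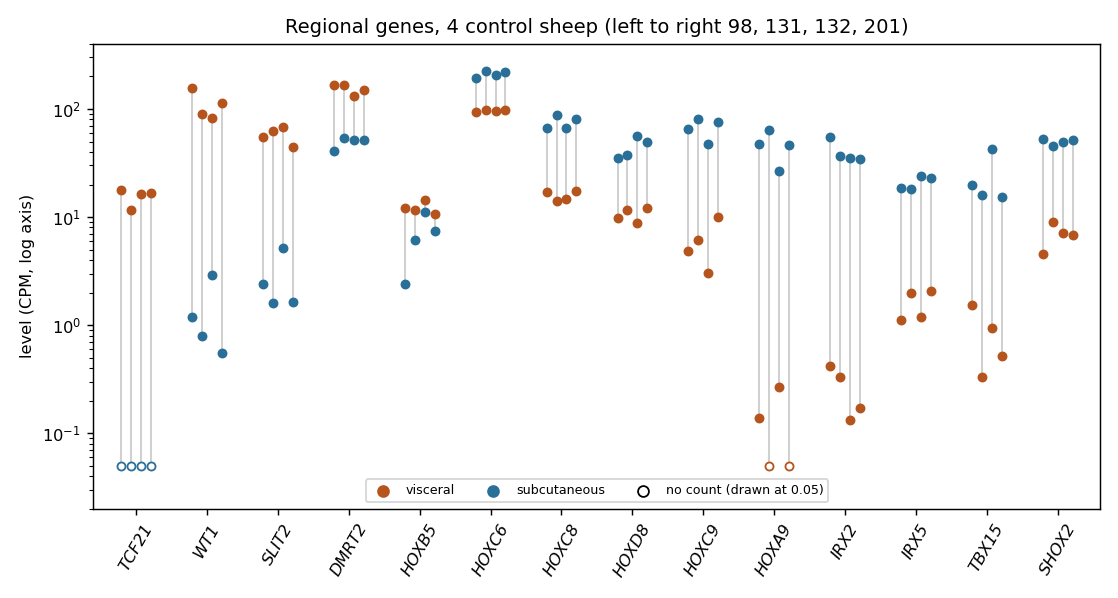
Levels (CPM, log axis) of 14 genes of regional development in the 4 control sheep, each sheep drawn as a grey line between its visceral and its subcutaneous library. Open circles at 0.05 are libraries with no count; TCF21, WT1, SLIT2, DMRT2 and HOXB5 are higher in visceral fat and the other 9 genes in subcutaneous fat.

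Some genes were detected in 1 depot alone. In all, 18 genes had a mean of at least 1 CPM in 1 depot and no count in the other, 10 of them in visceral and 8 in subcutaneous fat, and they are given here because of these values. TCF23, a relative of TCF21, was at least 27.1-fold higher in visceral fat and the homeobox gene ISL1 at least 13.4-fold. For DLK1, an inhibitor of adipocyte differentiation, the bound was 8.29-fold, but it did not pass the filter on low counts. Its 37 visceral counts were uneven between sheep, at 0.164 to 4.125 CPM with a mean of 1.27 CPM. PAX1, a paired box gene of the sclerotome, was at least 29.3-fold higher in subcutaneous fat, and the glutamate receptor subunit gene GRIN2B at least 20.8-fold. No count over 4 libraries allows a level of up to 0.113 CPM in visceral and 0.167 CPM in subcutaneous fat, by counting error alone.

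The secreted guidance factor SLIT2 had the largest visceral excess of a list of guidance genes. It stood at 54.8, 62.1, 68.0 and 44.6 CPM in visceral and 2.40, 1.59, 5.13 and 1.64 CPM in subcutaneous fat. The depots were well separated in every sheep, with a log2 fold change of 4.41 (SE 0.24, adjusted p = 5.53e-09). Its relative SLIT3 was also higher in visceral fat in each sheep, at 1.11 (SE 0.20), as was the semaphorin and VEGF receptor NRP2, at 0.84 (SE 0.14). The netrin NTN1 went the other way, from 1.02 to 2.96 CPM in visceral to 4.46 to 10.9 CPM in subcutaneous fat (-2.07, SE 0.33). Of 40 guidance genes 33 were tested, 3 were called higher and 4 lower, with a median log2 fold change of 0.03. The shares were 9.1% and 12.1%, near the 10.1% and 8.27% over all genes. The lower calls came to 1 without sheep 131 and 2 without sheep 98.

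ADRB3, the beta-3 adrenergic receptor through which catecholamines start lipolysis in adipocytes, had 59.7, 77.2, 85.0 and 64.0 CPM in visceral fat and 0.958, 7.70, 0 and 6.18 CPM in subcutaneous fat. Visceral levels were alike between sheep, whereas in subcutaneous fat sheep 98 and 132 were near 0 and sheep 131 and 201 were higher. The log2 fold change was 4.35 (SE 0.78, adjusted p = 0.0355). With 3 sheep left, the adjusted p was 0.103 without sheep 98, 0.0629 without sheep 131 and 0.0702 without sheep 201, at log2 fold changes of 4.08 to 4.90. The beta-1 receptor ADRB1 was the more abundant receptor, at 160, 215, 168 and 168 CPM in visceral and 47.9, 79.9, 38.8 and 88.8 CPM in subcutaneous fat. Its groups did not overlap either, with a log2 fold change of 1.52 (SE 0.17, adjusted p = 3.36e-05).

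Several genes that act after these receptors were lower in visceral fat. Adenylyl cyclase ADCY5 was at 22.6, 20.2, 43.5 and 17.2 CPM in visceral and 56.3, 53.4, 96.4 and 59.9 CPM in subcutaneous fat, -1.42 (SE 0.16, adjusted p = 1.42e-05) on the log2 scale. PNPLA2, the lipase that takes the first fatty acid off a triglyceride, stood at 157, 199, 195 and 117 CPM in visceral and 269.5, 288, 288 and 297 CPM in subcutaneous fat (-0.82, SE 0.15). MGLL, which takes the last, was at 52.7, 77.4, 71.8 and 55.9 and 107, 113, 104 and 99.7 CPM (-0.75, SE 0.14). In each of these 3 genes all subcutaneous libraries lay above all visceral ones. LIPE, the hormone-sensitive lipase that acts between them, ran from 1788 to 2658 CPM in visceral and from 1696 to 2459 CPM in subcutaneous fat, and its log2 fold change of 0.07 (SE 0.17) did not pass the test. Of 28 lipolysis and adrenergic genes 26 were tested, 4 were called higher and 5 lower in visceral fat, with a median of 0.05. Without sheep 98, 2 were called higher.

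The defining genes of the adipocyte did not pass the test. Adiponectin, ADIPOQ, had 9002, 13580, 20110 and 15250 CPM in visceral and 9573, 12430, 14170 and 11590 CPM in subcutaneous fat, a log2 fold change of 0.22 (SE 0.18, adjusted p = 0.43). Leptin, LEP, varied more between sheep than between depots, at 498, 534, 317 and 307 CPM in visceral and 452, 751, 227 and 308 CPM in subcutaneous fat (log2 fold change 0.01, SE 0.16, adjusted p = 0.969). FABP4 had a log2 fold change of 0.47 (SE 0.19, adjusted p = 0.096) and was called higher in visceral fat in DESeq2 (adjusted p = 0.0206) and without the filter on low counts (0.0287). PPARG, the main regulator of adipocyte differentiation, was at 0.08 (SE 0.14), and PLIN1, the main coat protein of the lipid droplet, at -0.24 (SE 0.16). All 11 adipocyte markers were tested, 0 were called higher and 2, PLIN4 and CIDEC, were called lower, with a median of 0.07.

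Genes of lipid droplets and of triglyceride synthesis moved in both directions. DGAT2, which adds the last fatty acid to a triglyceride, was at 223, 379, 355 and 133 CPM in visceral and 109, 179.7, 119.6 and 77.7 CPM in subcutaneous fat. It was higher in visceral fat within each sheep although the groups overlapped (log2 fold change 1.10, SE 0.15, adjusted p = 0.000106). The droplet proteins PLIN4 and CIDEC were lower in visceral fat. PLIN4 stood at 11.4, 19.1, 31.3 and 10.4 CPM in visceral and 44.6, 37.4, 59.4 and 40.0 CPM in subcutaneous fat (log2 fold change -1.45, SE 0.20, adjusted p = 0.000166), and CIDEC, which drives the fusion of droplets, at 329, 518, 546 and 428 and 703, 752, 709 and 728 CPM (log2 fold change -0.71, SE 0.15, adjusted p = 0.00435). Of 23 genes of this list 22 were tested, 4 were called higher and 8 lower, with a median of -0.17. Without sheep 131, 1 was called higher and 5 lower, without sheep 98, 2 and 8, and without sheep 201, 3 and 5. In the fit without sheep 131 the related gene CIDEA (log2 fold change -1.22 with all sheep) had an adjusted p of 0.0693, and without sheep 201 of 0.11.

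Genes of fatty acid synthesis were lower in visceral fat at several steps. FASN, fatty acid synthase, was at 55.9, 66.0, 70.1 and 35.0 CPM in visceral and 154, 128, 184 and 52.2 CPM in subcutaneous fat. The groups overlapped because sheep 201 was low in both depots, but subcutaneous fat was higher in 4 of 4 sheep (log2 fold change -1.13, SE 0.16, adjusted p = 0.000152). ACACA, the acetyl-CoA carboxylase that feeds it, had a log2 fold change of -0.97 (SE 0.15, adjusted p = 0.000322). ACSS2, which activates acetate, the main carbon source of fat synthesis in ruminants, was at 50.8, 84.4, 64.7 and 51.4 CPM in visceral and 158, 163, 122 and 71.5 CPM in subcutaneous fat (log2 fold change -1.02, SE 0.16, adjusted p = 0.000662). The elongase ELOVL6 was at -0.95 (SE 0.13), with sheep 132 the highest in both depots.

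Of 24 lipogenic genes 23 were tested, and 8 were called lower and 4 higher in visceral fat, with a median of -0.09. Without sheep 98 there were 5 lower and 3 higher calls, and without sheep 131, 6 and 2. The other lower members were SCD, INSIG1, MID1IP1 and SLC25A1, and the higher ones ACLY, ELOVL5, FADS1 and ME1. The mitochondrial enzyme ACSS3, which activates short fatty acids such as propionate, was outside these lists and among the abundant genes with the strongest visceral excess, at 141, 226, 216 and 181 CPM in visceral and 39.8, 40.4, 25.2 and 40.4 CPM in subcutaneous fat (log2 fold change 2.37, SE 0.18, adjusted p = 7.18e-07). Among 17 listed uptake genes, 16 were in the table and 14 were tested, 2 were called higher and 3 lower. None of the 2 higher ones, FABP5 and ACSL1, stayed called without sheep 131 or 132, and without sheep 201 the list had 1 lower call.

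Fatty acid oxidation genes were called in 1 direction only. Of 23 in the count table, 21 were tested, 7 were called higher and 0 lower in visceral fat, with a median of 0.36. EHHADH, of the peroxisomal pathway, was at 102, 162, 183 and 159 CPM in visceral and 59.9, 86.3, 85.0 and 79.1 CPM in subcutaneous fat, without overlap (log2 fold change 0.93, SE 0.13, adjusted p = 0.000156). ETFDH, which passes electrons from oxidation to the respiratory chain, was at 63.6, 69.6, 104 and 71.2 and 23.5, 26.0, 39.3 and 48.6 CPM (log2 fold change 1.17, SE 0.17, adjusted p = 0.000189). DECR1, needed for unsaturated fatty acids, differed more between sheep, with sheep 131 highest in both depots, and was higher in visceral fat in each (log2 fold change 1.04, SE 0.14, adjusted p = 8.58e-05). ACAA2, the thiolase of the last step, reached 1086 to 1910 CPM in visceral and 491 to 1096 CPM in subcutaneous fat (log2 fold change 0.92, SE 0.16, adjusted p = 0.000872). The other 14 tested members did not pass.

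Of 24 oxidative phosphorylation subunits in the count table, 22 were tested, and 5 were called higher and 0 lower. The 5 were NDUFA4 and subunits of complex I, at log2 fold changes of 0.54 to 0.68. The number called was 2 without sheep 131 and 3 without sheep 201. Ribosomal protein genes, given below, moved the same way. CIDEA and DIO2 were the 2 called members of the brown and beige list, both lower in visceral fat. Of the 19 genes counted, 8 could be tested, 5 of them with a positive log2 fold change, and the median was 0.54. DIO2 was low, at 1.15 to 2.22 CPM in visceral and 2.12 to 6.95 CPM in subcutaneous fat, and its adjusted p was 0.12 without sheep 98, 0.0684 without sheep 131 and 0.176 without sheep 132.

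Adipokines and other secreted factors were mixed. Apelin, APLN, stood at 17.1, 23.3, 30.2 and 25.3 CPM in visceral and 6.95, 16.2, 16.5 and 12.7 CPM in subcutaneous fat (log2 fold change 0.88, SE 0.19, adjusted p = 0.00443). NAMPT, which makes a precursor of NAD and is also secreted, was lower in visceral fat, at 69.0, 83.3, 70.7 and 93.8 against 182, 139, 102 and 103 CPM (log2 fold change -0.72, SE 0.17, adjusted p = 0.0112, or 0.0616 without sheep 131). Agouti signalling protein, ASIP, known in sheep for its role in coat colour, was at 336, 299, 351 and 276 CPM in visceral and 583, 509, 464 and 488 CPM in subcutaneous fat (log2 fold change -0.72, SE 0.14, adjusted p = 0.00233). Of 24 adipokine genes 17 were tested, 4 were called higher and 2 lower, and the higher calls came to 1 without sheep 98 and 2 without sheep 131. GPR1, a receptor for the adipokine chemerin, had a wide visceral excess, at 38.2, 34.0, 22.2 and 17.8 CPM in visceral and 2.88, 1.33, 4.24 and 1.27 CPM in subcutaneous fat (log2 fold change 3.48, SE 0.30, adjusted p = 2.46e-06).

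Growth factor genes of the IGF system split between the depots. IGF1, which carries much of growth hormone's action, was at 605, 469.9, 565 and 525 CPM in visceral and 97.5, 108, 60.5 and 147 CPM in subcutaneous fat. It was the largest difference of the list, a log2 fold change of 2.42 (SE 0.20, adjusted p = 6.16e-06). IGF2, a growth factor best known from fetal life, was at 456, 445, 449 and 539.9 and 1066, 843, 543 and 818 CPM (log2 fold change -0.78, SE 0.16, adjusted p = 0.00403). The receptor IGF1R was lower in visceral fat (log2 fold change -0.64, SE 0.14, adjusted p = 0.00386) and the binding protein IGFBP7 higher, at 70.2, 85.2, 99.7 and 77.5 CPM in visceral and 27.6, 38.0, 42.6 and 31.5 CPM in subcutaneous fat (2.36-fold higher, SE 0.14 on the log2 scale, adjusted p = 1.88e-05). Of 18 genes 13 were tested, 3 were called higher and 3 lower.

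Insulin signalling genes gave 1 higher and 1 lower call of 24 tested, 4.2% each, against 10.1% and 8.27% over all genes. The lower one, GRB14, which inhibits the insulin receptor, was near its detection limit in visceral fat, at 0, 0.164, 0.133 and 0.512 CPM against 4.55, 3.45, 2.46 and 2.37 CPM in subcutaneous fat (log2 fold change -3.92, SE 0.64, adjusted p = 0.000612). Its fold is uncertain, since the log2 value was -3.29 without sheep 98 and -4.88 without sheep 201.

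Glucocorticoid genes leaned to subcutaneous fat. Of 17 in the count table, 16 were tested, 6 were called lower and 1 higher in visceral fat, with a median of -0.40. ZBTB16, a gene that glucocorticoids induce, was at 407, 355, 336 and 271 CPM in visceral and 722, 783, 667 and 575 CPM in subcutaneous fat, with no overlap (log2 fold change -1.03, SE 0.14, adjusted p = 0.000137). PER1, a clock gene that is also such a target, was at 44.8, 23.5, 22.9 and 22.0 and 75.5, 72.2, 68.7 and 79.9 CPM (log2 fold change -1.46, SE 0.18, adjusted p = 5.60e-05). The receptor NR3C1 differed little, from 191 to 267 to 249 to 393 CPM (log2 fold change -0.45, SE 0.13, adjusted p = 0.0253), and its adjusted p was 0.0609 without sheep 131, 0.104 without sheep 132 and 0.0974 without sheep 201. The other lower members were HSD11B1, FKBP5 and KLF9, and DUSP1 was the higher one. Sex steroid genes gave 1 higher (6.2%) and 2 lower (12.5%) calls of 16 tested, against 10.1% and 8.27% over all genes. GPER1, a membrane receptor for estrogen, was at 1.80, 1.15, 0.931 and 1.20 CPM in visceral and 5.99, 5.31, 5.13 and 2.37 CPM in subcutaneous fat (log2 fold change -1.87, SE 0.39, adjusted p = 0.00359).

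All 3 retinaldehyde dehydrogenases, which make retinoic acid, were called higher in visceral fat. ALDH1A1 was the most abundant, at 1939, 1740, 1078 and 1670 CPM in visceral and 547, 381, 219.6 and 239 CPM in subcutaneous fat. Sheep 132 was lowest in both depots, the groups did not overlap, and the log2 fold change was 2.26 (SE 0.18, adjusted p = 2.81e-07). ALDH1A3 followed at 77.7, 34.5, 52.4 and 37.9 and 17.0, 6.90, 28.1 and 6.73 CPM (log2 fold change 1.89, SE 0.25, adjusted p = 0.000374). ALDH1A2 was at 44.0, 38.9, 46.7 and 44.1 CPM in visceral and 14.4, 19.9, 6.25 and 34.0 CPM in subcutaneous fat (log2 fold change 1.34, SE 0.36, adjusted p = 0.042), and its adjusted p was 0.17 without sheep 98 and 0.0842 without sheep 131. Of 25 retinoid genes 21 were tested, these 3 were higher and CRABP2 and RXRA lower, with a median of -0.02. The list's shares were 14.3% and 9.5%, near the 10.1% and 8.27% over all genes.

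In the Wnt pathway 3 of 26 tested genes were called higher and 1 lower, and without sheep 132, 5 and 4. With all sheep the shares were 11.5% and 3.8%, against 10.1% and 8.27% over all genes. The receptor FZD1 was at 40.8, 32.5, 15.04 and 19.98 CPM in visceral and 8.38, 11.2, 9.82 and 5.46 CPM in subcutaneous fat (log2 fold change 1.56, SE 0.25, adjusted p = 0.000612). The ligand WNT5A (0.77, SE 0.20) and its receptor ROR2 (1.52, SE 0.39) were the other higher members. WNT5A had an adjusted p of 0.0556 without sheep 131, and ROR2 of 0.0692 without sheep 201. The antagonist DKK2 was lower, at 0.416, 1.15, 2.00 and 0.512 CPM in visceral and 4.31, 2.12, 31.2 and 2.91 CPM in subcutaneous fat. Sheep 132 carried most of it in subcutaneous fat, and the log2 fold change went from -2.98 (SE 0.47, adjusted p = 0.000523) to -2.18 without that sheep. APCDD1, a membrane inhibitor of Wnt signalling outside the list, was lower in visceral fat as well, at 92.2, 134, 231 and 141 against 440.1, 341, 520 and 333 CPM (log2 fold change -1.52, SE 0.17, adjusted p = 3.86e-05).

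TGF-beta and BMP genes gave 7 higher and 7 lower calls of 35 tested, with a median of 0.09, and 6 and 4 without sheep 98. BMP5 was at 11.8, 8.05, 8.65 and 9.05 CPM in visceral and 37.4, 20.2, 70.1 and 45.1 CPM in subcutaneous fat (log2 fold change -2.13, SE 0.25, adjusted p = 0.000108). ACVR1C, a receptor that adipocytes express, was higher in visceral fat, at 142, 210.1, 243 and 163 against 86.7, 130.3, 136 and 109.9 CPM (log2 fold change 0.68, SE 0.13, adjusted p = 0.00162), as was the endothelial receptor ACVRL1 (log2 fold change 0.96, SE 0.19, adjusted p = 0.00295). SMAD3, which carries the TGF-beta signal to the nucleus, was lower (log2 fold change -1.03, SE 0.19, adjusted p = 0.00209). In the FGF family 1 of 13 tested genes was called higher, the coreceptor KLB, and 3 were called lower, FGF7, FGF18 and FGFR1. These were 7.7% and 23.1% of the family members tested, against 10.1% and 8.27% over all genes. FGFR1 was at 513, 625, 647 and 552 CPM in visceral and 836, 984, 829 and 784 CPM in subcutaneous fat (log2 fold change -0.58, SE 0.14, adjusted p = 0.0112, or 0.0505 without sheep 131). Without sheep 201, 1 gene of the family was called lower.

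Matrix glycoproteins and proteoglycans were called in both directions. EFEMP1, a fibulin, was at 376, 400.3, 325 and 344 CPM in visceral and 46.2, 58.7, 62.0 and 93.3 CPM in subcutaneous fat (log2 fold change 2.49, SE 0.18, adjusted p = 2.57e-07). FBLN5, another fibulin, stood at 67.2, 70.3, 36.6 and 83.3 and 12.5, 16.2, 10.5 and 22.7 CPM (log2 fold change 2.03, SE 0.17, adjusted p = 5.11e-07), and LOXL1, which crosslinks elastin, at 13.7 to 20.7 and 5.09 to 12.7 CPM (log2 fold change 1.31, SE 0.25, adjusted p = 0.00193). CCN3, a matricellular protein, was lower in visceral fat in every sheep, at 133, 295, 184 and 122 CPM in visceral and 637, 752, 986 and 914 CPM in subcutaneous fat (log2 fold change -2.26, SE 0.22, adjusted p = 3.54e-05). Of 47 glycoprotein and proteoglycan genes 44 were tested, 13 were called higher and 5 lower, with a median of 0.21. The higher calls came to 7 without sheep 131, 8 without sheep 98 and 6 without sheep 201. Without sheep 132, 15 were called higher and 2 lower. The median was 0.03 without sheep 131 and 0.41 without sheep 132.

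Collagens were called lower more often than higher in visceral fat, 6 against 2 of 23 tested, with a median of -0.30. COL12A1, which decorates collagen fibrils, was at 81.8, 53.5, 64.8 and 83.9 CPM in visceral and 208, 145, 304 and 198 CPM in subcutaneous fat (log2 fold change -1.58, SE 0.17, adjusted p = 1.34e-05). The basement membrane chain COL4A2 was at 225, 332, 292 and 210.4 and 465, 469, 615 and 464 CPM (log2 fold change -0.96, SE 0.15, adjusted p = 0.000401). In both, sheep 132 was the highest subcutaneous library and the groups did not overlap. Matrix enzymes gave 4 higher and 4 lower calls of 33 tested, among the lower ones the protease ADAMTS12 (log2 fold change -1.49, SE 0.21, adjusted p = 0.000152). The share called was 12.1% in each direction, against 10.1% higher and 8.27% lower over all genes. The numbers of collagens called lower were 3 without sheep 132, 3 without sheep 201, 4 without sheep 131 and 5 without sheep 98.

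Macrophage and T cell transcripts were higher in visceral fat, while the summed B and plasma cell, neutrophil and mast cell, chemokine and interferon lists overlapped between the depots. In bulk tissue, more cells of a type and more RNA per cell of that type cannot be told apart. Macrophage and monocyte markers summed to 953 to 1585 CPM in visceral and 614 to 830.2 CPM in subcutaneous libraries, without overlap, over all 19 markers in the table. Of these 17 were tested, 9 were called higher and 0 lower, with a median of 0.80. TYROBP, a signalling adaptor of myeloid cells, was at 89.7, 82.0, 41.8 and 49.4 CPM in visceral and 36.4, 17.8, 12.7 and 17.1 CPM in subcutaneous fat (log2 fold change 1.65, SE 0.17, adjusted p = 8.29e-06). FOLR2, a folate receptor of resident macrophages, was at 17.6, 22.5, 11.6 and 18.3 and 6.23, 6.37, 5.36 and 6.91 CPM (log2 fold change 1.44, SE 0.22, adjusted p = 0.000358). Without sheep 98 or sheep 131, 6 of the markers were called.

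T and NK cell markers summed to 67.5 to 134 CPM in visceral and 19.4 to 46.7 CPM in subcutaneous libraries, over 20 markers. Only 8 of the 20 passed the filter on low counts, which a gene can pass through the depot in which it is higher, and 7 of these were called higher. CD3G, a chain of the T cell receptor complex, was at 21.8, 18.1, 14.6 and 12.1 CPM in visceral and 1.68, 6.11, 2.23 and 4.18 CPM in subcutaneous fat (log2 fold change 2.22, SE 0.32, adjusted p = 0.000327). CD8A, of cytotoxic T cells, was at 7.50, 6.73, 4.39 and 2.90 and 1.20, 0.796, 0.67 and 1.46 CPM (log2 fold change 2.25, SE 0.42, adjusted p = 0.0017). B and plasma cell markers overlapped between the depots, at 118 to 204 CPM in visceral and 98.2 to 123 CPM in subcutaneous libraries.

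The complement and antigen presentation lists held higher calls and 0 lower ones, and several of their genes are expressed by macrophages themselves. Of 21 complement genes 18 were tested, 6 were called higher and 0 lower, with a median of 0.63. C1S, a protease of the first complement component, was at 269, 265, 387 and 172 CPM in visceral and 81.2, 105, 144 and 105 CPM in subcutaneous fat (log2 fold change 1.28, SE 0.16, adjusted p = 5.70e-05). C1QC, a chain of the recognition part made by macrophages, was at 280.4, 209.8, 188 and 247 and 116, 105, 88.8 and 144 CPM (log2 fold change 1.01, SE 0.14, adjusted p = 0.000108). Of 14 antigen presentation genes 12 were tested, 7 were called higher and 0 lower, with a median of 0.74. The protease CTSS was at 904, 817, 614 and 539 CPM in visceral and 444, 327, 255 and 363 CPM in subcutaneous fat (log2 fold change 1.03, SE 0.16, adjusted p = 0.000335).

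Of 30 chemokine and receptor genes 19 were tested, 7 were called higher and 1 lower, and 4 and 0 without sheep 98. Their summed levels overlapped, at 657 to 1006 CPM in visceral and 573 to 983 CPM in subcutaneous libraries. CXCL10, which draws T cells, was at 10.4, 12.8, 16.1 and 4.61 CPM in visceral and 2.40, 2.92, 0.893 and 1.27 CPM in subcutaneous fat (log2 fold change 2.48, SE 0.35, adjusted p = 0.000179). The lower one, CXCL14, a chemokine that fibroblasts and epithelia make, was near 0 in visceral fat, at 0, 0.821, 0 and 0.171 CPM, and ranged widely in subcutaneous fat, at 13.7, 2.39, 74.8 and 2.55 CPM. Sheep 132 held most of it, and the log2 fold change of -6.32 (SE 1.35, adjusted p = 0.0438) was -4.03 without that sheep. The adjusted p was 0.135 without sheep 98 and 0.101 without sheep 201. Interferon response genes gave 2 higher (12.5%) and 0 lower calls of 16 tested, against 10.1% and 8.27% over all genes. The neutrophil and mast cell markers overlapped, summing to 30.7 to 50.9 CPM in visceral and 24.4 to 71.6 CPM in subcutaneous libraries. Lymph node stroma and dendritic markers summed to 14.2 to 24.8 CPM in visceral and 3.12 to 14.1 CPM in subcutaneous libraries, and erythroid markers to 5.26 to 10.2 and 1.68 to 4.51 CPM, both without overlap. Schwann cell and neuron markers summed to 503 to 801 and 271 to 546 CPM, with overlap. The summed macrophage, T and NK cell, lymph node stroma and dendritic and erythroid markers were thus higher in visceral fat without overlap. The part of these or the other cell type markers in the immune lists was not tested.

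Mesothelial markers were low in both depots. The 14 markers in the table summed to 11.96 to 25.8 CPM in visceral and 21.8 to 102 CPM in subcutaneous libraries, and 3 could be tested. CALB2 had no count in any of the 8 libraries, and MSLN stayed at or below 0.266 CPM and UPK3B at or below 2.30 CPM. Among the markers too low to be tested, KRT19 ran from 0.854 to 1.80 CPM in visceral and from 0 to 0.531 CPM in subcutaneous libraries, and LRRN4 reached 1.97 and 0.364 CPM. The list's median log2 fold change was -1.58 over the 3 tested genes and 1.07 over 13 genes without the filter on low counts, where 0 were called higher and 3 lower. PRG4, which lubricates serous and joint surfaces, made up much of the subcutaneous sum, at 5.27, 3.29, 15.7 and 4.27 CPM in visceral and 14.4, 6.11, 79.7 and 16.2 CPM in subcutaneous fat (log2 fold change -1.80, SE 0.24, adjusted p = 0.000111). WT1, which also marks mesothelium, stood at 82.0 CPM or more in the visceral libraries in which these markers were low.

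Progenitor and fibroblast markers went both ways, with 6 called higher (35.3%) and 2 lower (11.8%) of 17 tested. Of the 17, 11 had a positive log2 fold change, and the median was 0.40. LUM ran from 362 to 581 CPM in visceral and from 83.9 to 229 CPM in subcutaneous fat. PI16 ran from 31.0 to 38.7 and from 2.92 to 14.7 CPM, and MFAP5 from 169 to 224 and from 75.9 to 125 CPM. GPC3, a cell surface proteoglycan, was at 316, 275, 281 and 202 CPM in visceral and 884, 429, 804 and 654 CPM in subcutaneous fat (log2 fold change -1.36, SE 0.17, adjusted p = 8.15e-05), and CD34 was also lower in visceral fat (log2 fold change -0.76, SE 0.14, adjusted p = 0.0015). DPP4, which marks an early progenitor in mice, was higher in visceral fat in each sheep, at 37.5, 13.1, 9.18 and 22.0 against 18.4, 2.39, 4.91 and 5.28 CPM (log2 fold change 1.499, SE 0.26, adjusted p = 0.000945). Endothelial markers gave 2 higher and 1 lower calls of 17, and smooth muscle and pericyte markers 5 higher and 2 lower of 17, or 3 and 3 without sheep 131. The endothelial shares were 11.8% and 5.9%, against 10.1% and 8.27% over all genes. Of the skeletal muscle markers 3 were tested, and 1 was called higher and 1 lower. TTN ran from 2.00 to 14.8 CPM in visceral fat, highest in sheep 98, and from 0.958 to 1.82 CPM in subcutaneous fat. NEB was lower in visceral fat at 96.9, 73.1, 25.9 and 97.3 against 174, 153, 109.6 and 139 CPM (log2 fold change -1.12, SE 0.23, adjusted p = 0.00818). The other markers of this list reached no more than 4.51 CPM. Without the filter on low counts the median was 1.27 over 19 genes, with 2 called higher and 2 lower. Of 17 gut epithelium and enteric markers 2 were tested, ANO1 and RET, and 0 were called. ANO1 ran from 14.3 to 24.4 CPM in visceral and from 11.95 to 22.7 CPM in subcutaneous fat, and RET from 6.90 to 15.0 and from 4.02 to 8.19 CPM. CDH1, EPCAM and VIL1 stayed at or below 0.546 CPM in all 8 libraries. FABP2 reached 1.92 CPM in subcutaneous and KRT20 0.683 CPM in visceral fat. Of 23 epidermis and skin gland markers, 9 had no count, the basal keratin KRT5 among them, and 0 of the 3 tested were called. KRT10 lay at 20.5 to 45.9 CPM in visceral and 27.1 to 39.3 CPM in subcutaneous fat, PERP reached 1.67 and 12.05 CPM, and without the filter on low counts 2 of the markers were called lower in visceral fat, with a median of -1.04.

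**Figure D4:**
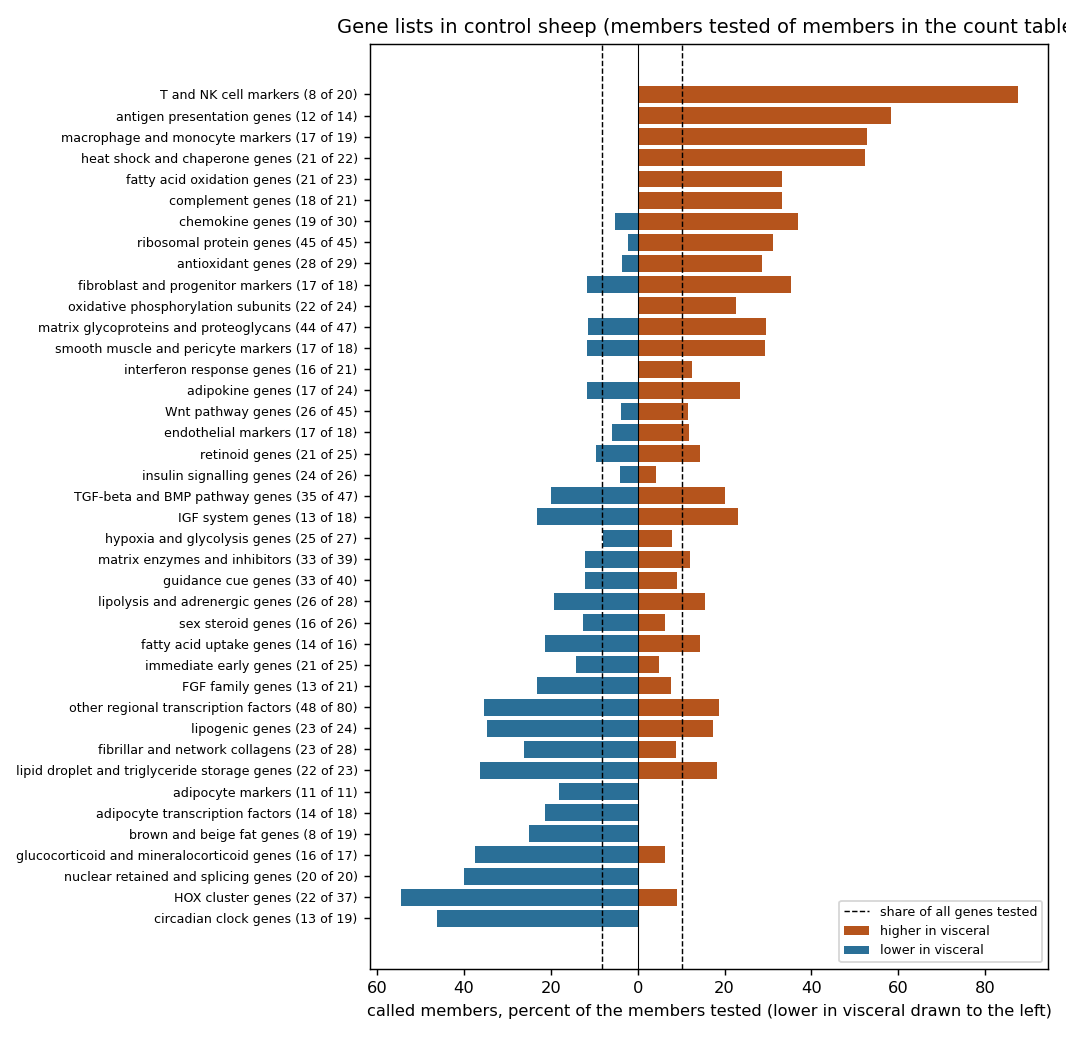
For each list with at least 8 tested members, the percentage of tested members called higher (right) or lower (left) in visceral fat of control sheep, with the numbers tested and in the count table beside its name. Dashed lines mark the shares over all genes, 10.1% and 8.27%; HOX genes reach 54.5% on the lower side and T and NK cell markers, of which few passed the filter, extend farthest on the higher side.

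Clock genes were called in 1 direction in the main fit. Of 19 in the count table, 13 were tested, 0 were called higher and 6 lower in visceral fat, with a median of -0.39. Without sheep 201 there were 1 higher and 4 lower calls, and without sheep 131, 0 and 4. Without the filter on low counts there were 2 higher and 7 lower calls. TEF, an output factor of the clock, was at 16.7, 24.0, 8.65 and 11.96 CPM in visceral and 51.0, 46.7, 37.9 and 25.5 CPM in subcutaneous fat (log2 fold change -1.46, SE 0.20, adjusted p = 0.000137). CRY2, a repressor of the clock, was at -0.86 (SE 0.18), and PER1, given above, and PER3, BHLHE40 and BHLHE41 were the others. The labels give no time of day.

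Lists that follow the handling or quality of RNA also differed between the depots, and their part in the other results was not tested. Heat shock and chaperone genes gave 11 higher and 0 lower calls of 21 tested, with a median of 0.48. Within it, HSPA4L was at 10.1, 10.3, 12.8 and 11.96 CPM in visceral and 1.44, 3.45, 1.56 and 4.37 CPM in subcutaneous fat (log2 fold change 2.08, SE 0.31, adjusted p = 0.000318). Ribosomal protein genes gave 14 higher and 1 lower calls of 45, with a median of 0.39, and RPS12 was at 433, 520, 726 and 561 and 275, 162, 315 and 314 CPM (log2 fold change 1.07, SE 0.17, adjusted p = 0.000426). Genes whose transcripts are retained in the nucleus or take part in splicing gave 0 higher and 8 lower calls of 20, with a median of -0.38.

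ARGLU1, one of these, was at 1416, 447, 395 and 680.4 CPM in visceral and 1453, 1534, 854 and 1391 CPM in subcutaneous fat (log2 fold change -1.01, SE 0.24, adjusted p = 0.0131). In sheep 98 the depots were alike, and in the other 3 subcutaneous fat was higher. The numbers of called genes changed with the sheep left out. Without sheep 131 the ribosomal list had 4 higher calls and the nuclear list 1 lower call. Without sheep 132 they had 10 and 3, without sheep 201, 7 and 4, and without sheep 98, 16 and 12. In these fits the median was 0.23 to 0.42 for the ribosomal and -0.51 to -0.24 for the nuclear list. With all sheep, 43 of 45 ribosomal and 2 of 20 nuclear genes had a positive log2 fold change. Immediate early genes gave 1 higher (4.8%) and 3 lower (14.3%) calls of 21, with a median of 0.00. Over all genes the shares were 10.1% and 8.27%.

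The most abundant genes with a strong visceral excess also included several enzymes and carriers outside these lists. TF, the iron carrier transferrin, was at 62.7, 130.3, 121 and 102 CPM in visceral and 7.91, 23.1, 23.4 and 20.6 CPM in subcutaneous fat (log2 fold change 2.49, SE 0.16, adjusted p = 2.78e-08). EPHX2, the soluble epoxide hydrolase, was at 312, 446, 558 and 569 and 99.4, 87.6, 65.8 and 126 CPM (log2 fold change 2.29, SE 0.20, adjusted p = 6.04e-06). GFPT2, which starts hexosamine synthesis, was nearly constant within each depot, at 171, 187, 191 and 181 CPM in visceral and 45.8, 57.3, 40.0 and 48.2 CPM in subcutaneous fat (log2 fold change 1.92, SE 0.14, adjusted p = 1.15e-07).

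On the subcutaneous side, HDGFL2, a chromatin reader, was at 321, 506, 277 and 233 CPM in visceral and 936, 956, 839 and 678 CPM in subcutaneous fat (log2 fold change -1.42, SE 0.16, adjusted p = 1.79e-05). ITIH5, a hyaluronan-binding matrix protein known from adipocytes, was at 78.6, 232, 123 and 124 and 305, 522, 272 and 258 CPM (log2 fold change -1.35, SE 0.16, adjusted p = 3.39e-05). LGI1, a secreted protein of nerve tissue, was at 0.972, 1.97, 3.06 and 0.342 CPM in visceral and 30.4, 21.2, 50.2 and 8.55 CPM in subcutaneous fat (log2 fold change -4.16, SE 0.28, adjusted p = 4.85e-08). In all 3 genes the groups did not overlap.

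The same comparison in the 4 testosterone sheep, 48, 185, 233 and 255, shares no animal with the controls. It called 44 of 12530 genes (0.351%), 22 in each direction, and 35 of these were called in controls in the same direction while 0 were called in opposite directions. Of the genes called higher in control visceral fat, 1091 of 1228 tested (88.8%) had a positive log2 fold change in testosterone sheep, and of those called lower 941 of 1021 (92.2%) had a negative one, against 49.9% positive over all genes. The medians were smaller, at 0.44 against 0.77 for the higher and -0.48 against -0.76 for the lower genes. SLIT2 (4.45 on the log2 scale, adjusted p = 0.000346), WT1 (5.97, 0.00902) and HOXC9 (-3.38, 0.0055) passed in both sets. Some genes called in controls were nearer to 0 in testosterone sheep, among them FASN at -0.25 (SE 0.30), ETFDH at -0.02 (SE 0.34) and IGF2 at 0.03 (SE 0.42), which did not pass there. IGF1, at 2.27 (SE 0.54, adjusted p = 0.189), kept its size but did not pass either.

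Of the testosterone libraries 2 stood apart, the subcutaneous library of sheep 48 with 784135 counts and the visceral library of sheep 255 with 2609183. ARGLU1 reached 25680 and 18440 CPM in them, against 602 to 2323 CPM in the other 6. In sheep 255, 47.4% of the genes called higher in controls were higher in visceral fat, against 78.7% to 89.4% in the other 3 sheep. Over all genes the share was 45.7% in sheep 255 and 51.7% to 56.7% in the others. Without sheep 48 and 255, an alternative chosen after seeing the data, 210 genes were called higher and 189 lower in testosterone sheep.

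**Figure D5:**
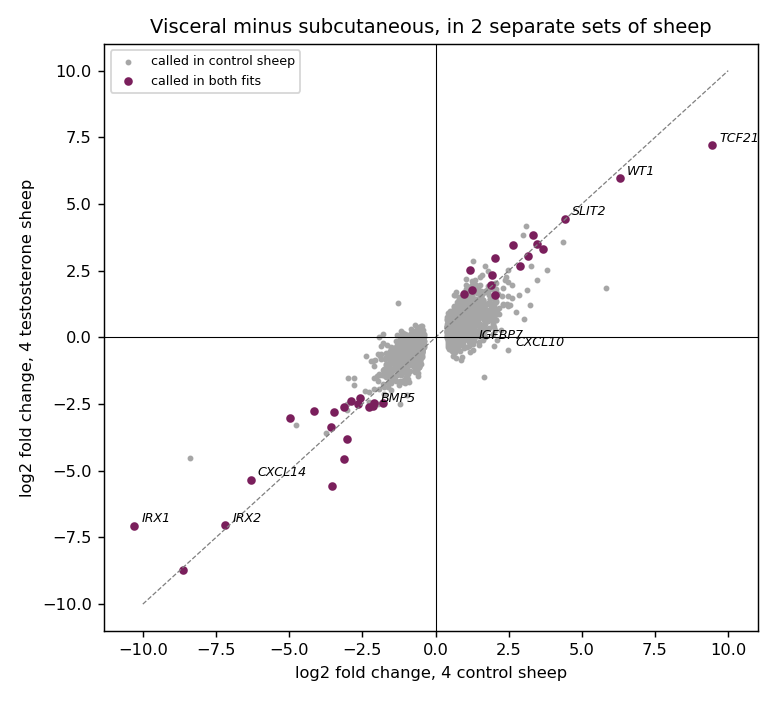
Log2 fold change, visceral minus subcutaneous, of the genes called in the 4 control sheep (horizontal) against the same value in the 4 testosterone sheep (vertical), with the line of equal values dashed. Genes called in both, 35 in all, are drawn large; 1091 of 1228 genes higher in control visceral fat lie above 0 and 941 of 1021 lower ones lie below 0.

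A fit of all 16 libraries tested whether the depot difference itself differed between control and testosterone sheep, and 0 of 13311 genes (0%) passed. At an unadjusted p under 0.05 there were 476 genes (3.6%), the smallest adjusted p was 0.999, and DESeq2 called 1 gene. That gene, ATP5MD, a small subunit of ATP synthase, had a log2 fold change of 0.70 in control and -0.79 in testosterone sheep, and CXCL10 was the 1 gene called without the filter on low counts, at 2.48 and -0.48. Their unadjusted p-values in edgeR's fit were 0.000162 and 0.00026. With 4 sheep a group and the 2 libraries that stood apart, a missing call does not show that the depots differed alike in both groups. No difference given here is therefore shown to be particular to control sheep.

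The other depots of the same control sheep place these differences. On log2(mean CPM + 1), perirenal fat lay nearer to visceral than to subcutaneous fat in 1105 of the 1273 higher genes (86.8%) and in 877 of the 1042 lower genes (84.2%). Epicardial fat did so in 685 (53.8%) and 558 (53.6%). The same shares over all genes tested were not computed. Among the lower genes, HOXA9, HOXA10, HOXC6, HOXC8, HOXC9 and HOXD8 went the other way, with perirenal fat nearer to subcutaneous fat. Mean perirenal levels were 43.65 CPM for HOXA9 and 103.4 CPM for HOXC9. For IRX1, IRX2 and TBX15 perirenal fat was nearer to visceral fat, at 0.0322, 0.426 and 0.0376 CPM. The values share the visceral and subcutaneous libraries that chose the genes, so that they are a description without a test.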

How the data were processed

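Total RNA with an integrity number of 7 or more was made into libraries with a kit that reads transcript 3′ ends, per the labels' protocols. The deposited table holds the authors' raw read counts per gene, not normalized, for 28524 genes and 32 libraries, of which 6247 genes had no count. The submitters' processing notes name, in no order, DESeq2 1.24.0, R 3.6.3, STAR, Trimmomatic 0.36, featureCounts 1.6.1 and the quality tools MultiQC 0.9 and FastQC 0.11.5. Build, annotation and strand setting of the counting were not given in the sources used here. Antisense or overlapping genes and near-identical copies may therefore share reads. Genes keep the symbols of the table; list members were also matched through older symbols and gene IDs of a RefSeq gene table (assembly ARS-UI_Ramb_v3.0).

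The main test was edgeR 4.0.16 (limma 3.58.1, R 4.3.3): TMM scaling, filterByExpr with a minimum count of 10, a robust quasi-likelihood fit of sheep plus depot in the 8 control libraries, and Benjamini-Hochberg adjustment over all genes tested, called under 0.05. Every adjusted p is from this fit unless another is named. The SE was taken as the absolute log2 fold change over the square root of the F statistic. The same fit was made in the 8 testosterone libraries, and the difference between both was tested in all 16. Printed CPM use TMM factors over all 32 libraries. Folds against a depot at 0 use a floor of 3 counts over its 4 libraries; floors and intervals cover counting error only, since reads carry no molecular identifiers. The code was tested on simulated data.

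The sheep block rests on the design, in which every sheep gave all depots. Deviations from the depot mean correlated between the 2 libraries of a sheep at 0.314 to 0.431. No 2 replicate libraries were identical, and their counts differed by far more than sampling noise (chi-square per degree of freedom 10.9 to 38.0).

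Named genes were the 12 with the largest fold in each direction (at least 5 CPM in the higher depot, same direction in 4 of 4 sheep), the 8 with the smallest p among those of at least 100 CPM, up to 4 called members of each list, and defining fat genes whatever their values; a few that the rule chose are not reported here. The comparison and the 50 gene lists were chosen with earlier results of these data known. Alternatives were RLE scaling, other filters, DESeq2 1.42.0, no block, thinned counts, all 16 control libraries and each sheep left out.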

Additional observations from a re-analysis of the deposited data

Results flagged for a closer look

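A library was set apart when it lay far from the other 3 of its depot relative to their spread, which chance gives in about 1 of 20 groups of 4. Of 404 groups checked (the genes reported and the summed cell type lists in each depot), 28 (6.9%) were so marked. Values are CPM.

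In visceral fat, sheep 98 stood above the other 3 for HOXA10 (0.278 against 0 in all), PER1 (44.8 against 22.0 to 23.5), MMP19 (27.2 against 8.25 to 11.3), IFI30 (11.1 against 3.93 to 5.09), TTN (14.8 against 2.00 to 3.07) and the sum of B and plasma cell markers (204 against 118 to 125). Sheep 131 was highest for ADRB1 (215 against 160.0 to 168) and for the sum of smooth muscle and pericyte markers (3924 against 2337 to 2595). Sheep 132 was highest for the keratin KRT23 (19.8 against 3.59 to 5.13) and PRG4 (15.7 against 3.28 to 5.27). IGF2 was at 539.9 in sheep 201 (445 to 456 in the others).

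In subcutaneous fat, sheep 132 had the most such values. It was above the others for TMEFF2 (4.02 against 0 in all), CXCL14 (74.8 against 2.39 to 13.7), TBX15 (42.6 against 15.3 to 19.6), ADCY5 (96.4 against 53.4 to 59.9), DKK2 (31.2 against 2.12 to 4.31), COL4A2 (615 against 464 to 468), LOXL1 (12.7 against 5.09 to 5.51), PRG4 (79.7 against 6.11 to 16.2) and the sum of mesothelial markers, to which PRG4 belongs (102 against 21.8 to 33.1). It was below them for ACSS3 (25.2 against 39.8 to 40.4).

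Sheep 98 was above the others in subcutaneous fat for IRX2 (54.9 against 34.8 to 36.9), TLE3 (84.8 against 58.4 to 60.5) and CIDEA (177 against 89.1 to 98.7) and below them for DMRT2 (41.0 against 52.0 to 53.9). Sheep 131 was below them for NDUFA1 (126 against 161 to 165). Sheep 201 was above them for FABP5 (6183 against 3101 to 3352) and below them for the amidoxime reductase gene MARC2 (40.8 against 55.8 to 57.0).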

How the results depend on the processing

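In control sheep, 1273 genes were called higher and 1042 lower in visceral fat. Leaving out 1 sheep gave 722 to 1037 and 546 to 886, and without the sheep as a block the counts were 555 and 431. The other alternatives run stayed within 1.5 times, and 0 called genes changed sign under any alternative. The cause of the lower counts was not tested, apart from the fewer libraries.

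In testosterone sheep, the counts of 22 and 22 were less stable. They were 167 and 112 without a filter on low counts, 12 and 15 with a filter of 5 CPM, 110 and 77 in DESeq2, 8 and 13 without the block, 3 and 7 with thinned counts, 210 and 189 without sheep 48 and 255 (chosen after seeing the data), and 1 to 74 and 4 to 84 with 1 sheep left out. The test of the difference between both sets called 1 gene without a filter, 1 in DESeq2 and 0 in the other fits.

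LEP and LIPE, not called in any fit, turned sign. LEP was at -0.086 without the block, -0.015 with thinned counts, -0.026 with all 16 control libraries and -0.13 to 0.19 with 1 sheep left out. LIPE was at -0.069 to 0.18 with 1 sheep left out. Genes at a few CPM in the shallower subcutaneous libraries rest on few counts.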
